A study of Mus musculus with 4 samples.

Results

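Potassium channel genes were followed over mouse kidney cortex by single-nucleus RNA sequencing. The set held every gene whose symbol is Kcn, then 1 to 3 lower-case letters and a number with at most 1 further letter, 79 of the 21046 genes measured, on 19 chromosomes. The data were 10X Chromium libraries from 4 genotypes, 1 library each, all labelled C57BL/6J and kidney cortex: Klf4flox/flox, which served as the control here, Klf4deltaEC, Nos3-/- and Klf4deltaECNos3-/-. Klf4 encodes a zinc-finger transcription factor and Nos3 the endothelial nitric oxide synthase. What drives the Klf4 deletion, and how many mice of which age and sex made up a library, is not stated in the labels. Each genotype had only 1 library, so differences are between single libraries and carry counting error only, with no test.

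Potassium channels let potassium ions cross a membrane down their electrochemical gradient. In the kidney tubule, basolateral channels set the cell's voltage and return the potassium that the sodium pump brings in, and apical channels secrete potassium into the urine or recycle it for salt transport. Inward rectifiers and tandem-pore channels conduct at rest, voltage-gated channels open on depolarisation, and calcium- or sodium-activated channels follow those ions. Auxiliary subunits carry no current of their own and alter the gating or traffic of pore-forming subunits.

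The deposited values are levels: the mean over the nuclei of a cluster and library of UMIs (unique molecular identifiers, 1 per captured RNA molecule) per 10000 UMIs. The authors' 23 clusters were grouped into 15 classes by marker genes, and the 12 classes with at least 50 nuclei in each library were compared. A class name ends in "-like" because it rests on those markers. Levels are listed throughout in the order control, Klf4deltaEC, Nos3-/-, Klf4deltaECNos3-/-, and ranges in parentheses are 95% counting intervals, which cover counting error only. The libraries held 6766, 6883, 7004 and 5491 nuclei, numbers recovered from the table itself, and the clusters' median UMIs per nucleus, averaged with nuclei as weights, were 4835, 4220, 2440 and 5454. The targeted genes did not show their labels in endothelial cell-like nuclei: Klf4 stood at 0.621, 0.779, 0.445 and 0.824, and Nos3 at 1.26, 0.930, 1.52 and 2.07. Each library is therefore called by its label, as the library labelled Klf4deltaEC and so on. Because the extent of each deletion is unstated, and reads beyond a deleted stretch check nothing, these values neither bear out nor contradict the labels.

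Of the 79 genes, 33 reached a level of 0.5 in at least 1 compared class of at least 1 library, and 23 of these did so in all 4 libraries. That share, 41.8%, was near the 36.8% of all 21046 genes that reached it. By role, 14 of 29 voltage-gated pore or silent subunits reached it, 5 of 15 inward rectifiers, 3 of 11 tandem-pore channels, 5 of 8 calcium- or sodium-activated channels and 6 of 16 auxiliary subunits. A further 6 genes (Kcnj13, Kcnab2, Kcnn4, Kcnk6, Kcnh4 and Kcnk13) reached 0.5 only in a single cluster or a class with fewer nuclei. The other 40 stayed below it everywhere, at most at 0.477. Among them were all the Kcna genes, a family of delayed rectifiers whose highest member was Kcna6 at 0.216, and Kcnj8, the pore of the vascular ATP-sensitive channel, at no more than 0.0997 in any compared class. None was at 0 in every column, and 30 of the 40 had fewer than 100 estimated UMIs in the whole table. In the compared classes 3 counts equal a level of 0.202 or less, so depth there reached below 0.5. In small classes it did not always, with 3 counts at 1.22 in urothelium-like nuclei of the library labelled Nos3-/-. Full absence of a gene cannot be told from a level below such floors. The 33 genes had a median genomic span of 195.9 kb against 18.06 kb for the remaining 46. Levels of different genes are not compared with each other here, because nuclear RNA holds introns and the values are not scaled to length.

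Many potassium channel genes had the same highest class in every library. For 23 of the 33 genes, 69.7%, the same compared class was highest in all 4 libraries, against 36% of the 7749 genes that passed the same level. For 15 of them, 45.5%, that class was at least 2-fold above every other compared class in all 4 libraries, against 9.43% of all genes. No test of this difference was made. The classes where these genes peaked also differed in number from the background: 26.1% of the 23 peaked in stromal cell-like nuclei against 7.06% of all genes with a stable peak, 13% in proximal tubule-like nuclei against 23.9%, and 4.35% in endothelial cell-like nuclei against 20.3%.

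**Figure D1:**
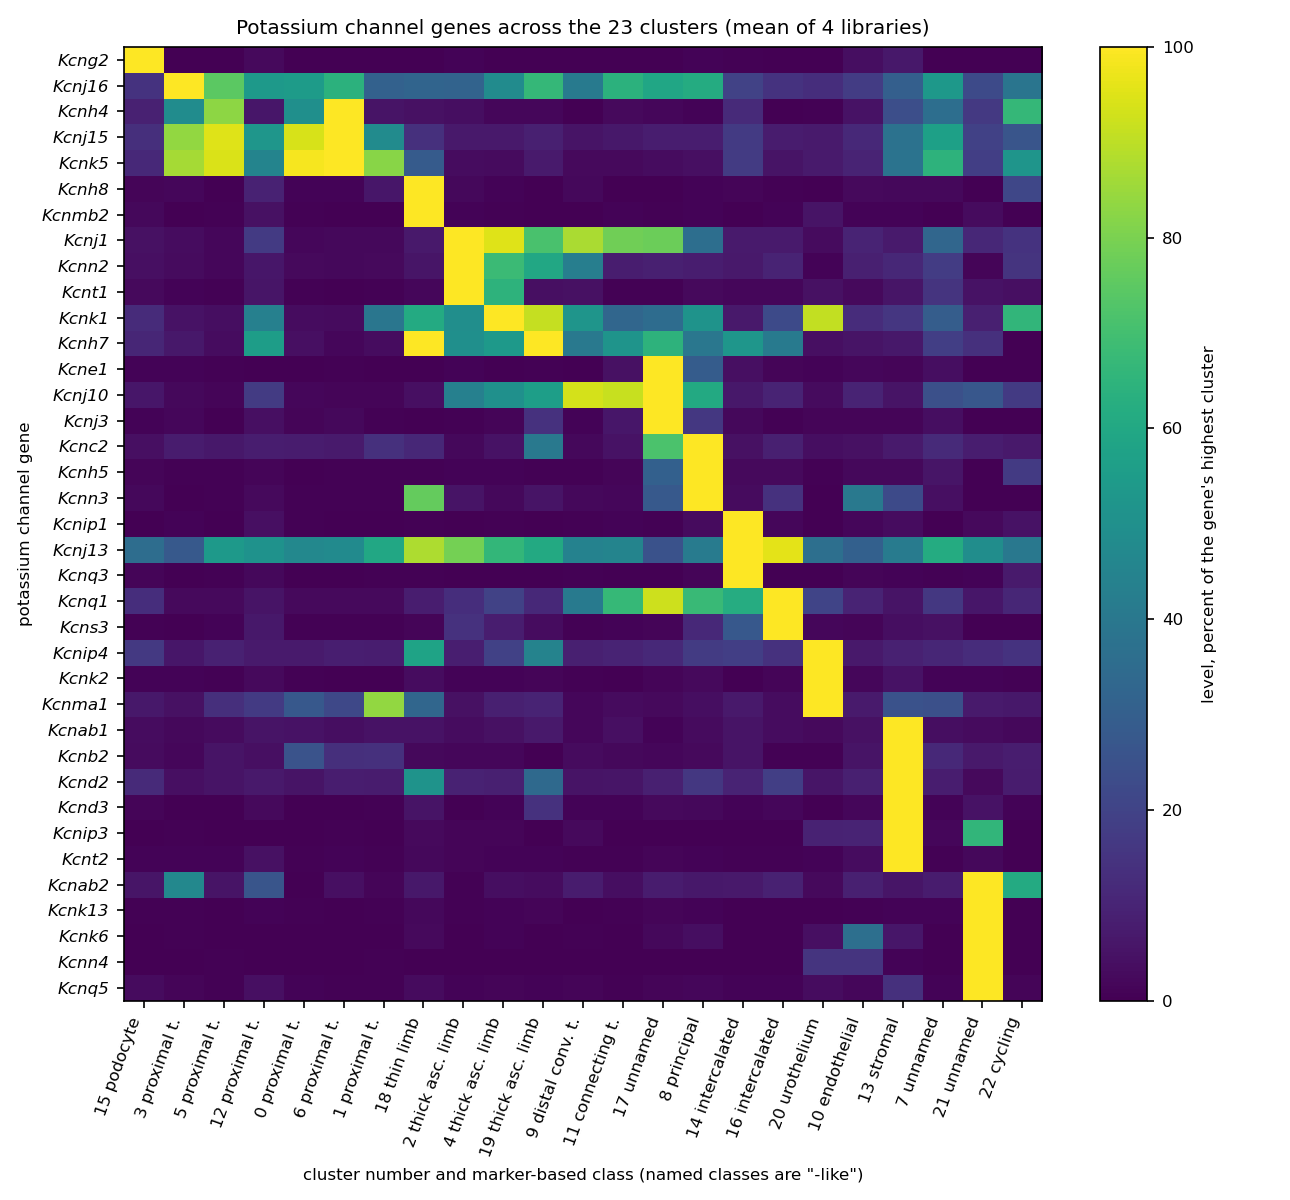
Level of 37 of the 39 potassium channel genes that reached 0.5 UMIs per 10000 UMIs in any class or cluster (rows) in each of the 23 clusters (columns, with cluster number and marker-based class), as a percent of the gene's own highest cluster in the mean of 4 libraries. Kcnj15 and Kcnk5 fill the proximal columns, Kcnj1 and Kcnj10 the distal ones, and a block of 6 genes peaks in stromal cluster 13.

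The proximal tubule held an inward rectifier and a tandem-pore channel that were high in every library. Kcnj15 (mm10, chromosome 16, 95257558 to 95300260, plus strand), a basolateral inward rectifier, stood in proximal tubule-like nuclei at 15.7, 12.1, 10.8 and 13.2. Kcnk5 (chromosome 14, 20140057 to 20181809, minus strand), an alkali-activated tandem-pore channel of this segment, stood there at 9.71, 10.9, 13.1 and 12.2. The extremes were swapped between the 2 genes: the control was highest for Kcnj15 and lowest for Kcnk5, and the library labelled Nos3-/- was lowest for Kcnj15 and highest for Kcnk5. Between those 2 libraries the log2 ratio was -0.53 (-0.57 to -0.50) for Kcnj15 and 0.43 (0.39 to 0.47) for Kcnk5, both under the size limit of 1.

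The stretches upstream of these proximal genes and of 2 inward rectifiers that were highest beyond the proximal tubule are shown side by side. They run from 250 to 31 bases before the RefSeq start in GRCm38.p6, 220 bases each, 5′ to 3′ on the gene's strand, and capitals mark motif matches. Kcnk5 is chr14:20181813-20182032 (minus), Kcnj15 chr16:95257308-95257527 (plus), Kcnj1 chr9:32393735-32393954 (plus) and Kcnj10 chr1:172340960-172341179 (plus).
Kcnk5: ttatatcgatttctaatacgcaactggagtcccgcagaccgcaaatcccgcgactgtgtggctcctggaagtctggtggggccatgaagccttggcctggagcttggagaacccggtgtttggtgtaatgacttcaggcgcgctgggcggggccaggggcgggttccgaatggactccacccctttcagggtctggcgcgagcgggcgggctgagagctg
Kcnj15: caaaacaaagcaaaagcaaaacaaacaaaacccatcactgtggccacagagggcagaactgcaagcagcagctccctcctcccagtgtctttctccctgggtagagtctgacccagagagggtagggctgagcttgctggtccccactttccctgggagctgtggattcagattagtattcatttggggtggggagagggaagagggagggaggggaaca
Kcnj1: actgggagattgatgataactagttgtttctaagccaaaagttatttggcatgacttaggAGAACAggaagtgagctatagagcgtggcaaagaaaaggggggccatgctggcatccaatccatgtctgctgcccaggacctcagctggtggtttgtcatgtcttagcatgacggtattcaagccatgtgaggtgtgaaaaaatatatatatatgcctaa
Kcnj10: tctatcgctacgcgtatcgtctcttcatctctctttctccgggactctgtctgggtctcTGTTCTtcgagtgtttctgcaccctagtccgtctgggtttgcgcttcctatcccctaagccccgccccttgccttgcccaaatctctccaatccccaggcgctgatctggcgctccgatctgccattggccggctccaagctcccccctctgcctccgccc
On both strands, 4 motifs were searched, and no matches overlapped in these 4 windows: the HNF1 half-site GTTAAT, the HNF4 site CAAAGTCCA, the estrogen-related receptor site TCAAGGTCA and the glucocorticoid receptor half-site TGTTCT. Kcnj1 and Kcnj10 each held 1 glucocorticoid receptor half-site, starting 190 and 191 bases before the start, and Kcnk5 and Kcnj15 held none of the 4 motifs. That half-site was in 14.4% of all 32851 windows of this length and in 13 of the 83 windows of potassium channel genes, and the others were in 5.82%, 0.329% and 0.365% of all windows in the order named. The GC content of the 4 windows was 61.8%, 54.1%, 44.1% and 60.0%. RefSeq windows were found for 58 of the 79 genes. The Kcnj1 window lies inside the span of the gene in GENCODE, which starts at 32372493.

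Proximal clusters were not alike. Kcnma1, the pore of the large-conductance calcium-activated channel (chromosome 14, 23289431 to 24014491, minus strand), stood in proximal cluster 1 at 5.88, 4.68, 7.59 and 4.79 and in cluster 0 at 1.61, 1.68, 2.88 and 1.35. The library labelled Nos3-/- was the highest in both clusters.

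Kcnj16 (chromosome 11, 110968033 to 111027968, plus strand), which encodes an inward rectifier subunit that works in heteromers with Kcnj10 or Kcnj15 products, had no single segment. It stood at 11.1, 12.1, 9.16 and 11.5 in connecting tubule-like nuclei, at 9.41, 11.2, 9.31 and 12 in principal cell-like nuclei, and at 8.68, 11.4, 9.42 and 12.5 in proximal tubule-like nuclei. The highest class differed between libraries. Among proximal clusters its levels differed most in cluster 3, at 12, 17.4, 13.4 and 25.5, where the library labelled Klf4deltaECNos3-/- was above the control by a log2 ratio of 1.08 (1.01 to 1.17). In proximal cluster 1 the same ratio was 0.32 (0.25 to 0.41). Ratios were larger where the gene was low: it stood at 1.66, 2.75, 5.0 and 2.45 in intercalated cell-like nuclei, a log2 ratio of 1.54 (1.30 to 1.89) for Nos3-/- over control, and at 2.09, 2.37, 5.8 and 1.8 in endothelial cell-like nuclei, a ratio of 1.43 (1.13 to 1.83). In these classes 13 proximal tubule markers summed to 25.1, 38.7, 59.8 and 27.0, and to 34.5, 28.4, 71.8 and 23.9, also highest in the library labelled Nos3-/-. Their part in the Kcnj16 ratios was not tested.

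Along the thick ascending limb the apical secretory channel appeared together with 2 ion-activated channels. Kcnj1, the apical inward rectifier that recycles and secretes potassium, stood in thick ascending limb-like nuclei at 3.31, 5.84, 5.66 and 5.27. The control was the lowest and the other 3 libraries lay close together, at log2 ratios over the control of 0.80 (0.72 to 0.92), 0.76 (0.66 to 0.89) and 0.66 (0.58 to 0.76), all under the size limit. Cluster 2 gave 3.22, 6.78, 5.6 and 5.26, and cluster 4 gave 3.45, 5.08, 5.97 and 5.37, so both main clusters placed the control lowest. Kcnj1 stayed high into distal convoluted tubule-like nuclei, at 3.61, 4.45, 4.48 and 5.68, and was lower in principal cell-like nuclei, at 1.15, 1.73, 2.65 and 2.02.

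Kcnt1, a sodium-activated channel (chromosome 2, 25863734 to 25918273, plus strand), was 1 of 4 genes highest in the thick ascending limb-like class. It stood there at 2.5, 2.05, 2.65 and 3.20, at least 2-fold above every other class in all 4 libraries. Within that class it was high in clusters 2 and 4 and low in cluster 19, at 0.177, 0, 0.0322 and 0.329. Kcnk1, a weakly inward-rectifying tandem-pore channel, stood in the class at 0.704, 0.948, 0.976 and 0.634. Kcnn2, a small-conductance calcium-activated channel, stood in the thick ascending limb-like class at 1.37, 1.45, 0.992 and 1.36, and in the distal convoluted tubule-like class at 0.544, 0.785, 0.564 and 0.749.

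Several channels of different types were highest in the late distal nephron. Kcnq1 (chromosome 7, 143106362 to 143427042, plus strand), a slow delayed rectifier, was lowest of these classes in the distal convoluted tubule and highest in an unnamed one: it stood at 7.21, 7.76, 7.54 and 6.49 in distal convoluted tubule-like nuclei, 11.5, 13.3, 10.5 and 11.7 in connecting tubule-like nuclei, 10.1, 12, 13 and 12.6 in principal cell-like nuclei, and 16.4, 16.5, 15.7 and 16.3 in unnamed cluster 17, which carried both connecting tubule and principal cell markers. Intercalated cell-like nuclei came second among the compared classes, at a mean of 14.1 over the libraries. Their cluster 16 averaged 17.6, above the 16.2 of cluster 17. The gene overlaps the antisense transcript Kcnq1ot1, and no source here gives the strand setting of the counting. Kcnq1ot1 is listed apart with another pattern, at 20.9, 19.3, 16.9 and 19.9 in podocyte-like cluster 15, where Kcnq1 was at 2.24, 2.85, 1.27 and 2.9, and at 3.34, 5.06, 1.61 and 2.47 in cluster 17. Without the strand setting, reads cannot be told apart from those of genes on the other strand of Kcnj15, Kcnma1, Kcnd3, Kcnt2, Kcnab1 and Kcnq3. Kcne1, the auxiliary subunit that slows Kcnq1 channels in the heart, also peaked in cluster 17, at 1.81, 1.65, 2.21 and 1.25. Kcnj3, a G protein-gated inward rectifier, stood there at 0.38, 0.884, 0.235 and 0.881, higher in both libraries labelled Klf4deltaEC.

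Kcnc2, a fast voltage-gated channel (chromosome 10, 112271121 to 112467024, plus strand), stood in principal cell-like nuclei at 6.03, 5.68, 3.73 and 5.78. The other libraries were close to each other, and the library labelled Nos3-/- was lower, at a log2 ratio of -0.68 (-1.0 to -0.40) to the control. Kcnh5, an ether-a-go-go channel (chromosome 12, 74897220 to 75177332, minus strand), stood there at 3.02, 3.01, 2.47 and 2.11 and was at least 2-fold above every other class in each library. Beside principal cells, Kcnc2 reached 3.88, 4.3, 2.19 and 4.87 in cluster 17 and 1.87, 3.01, 1.48 and 2.24 in thick ascending limb-like cluster 19.

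**Figure D2:**
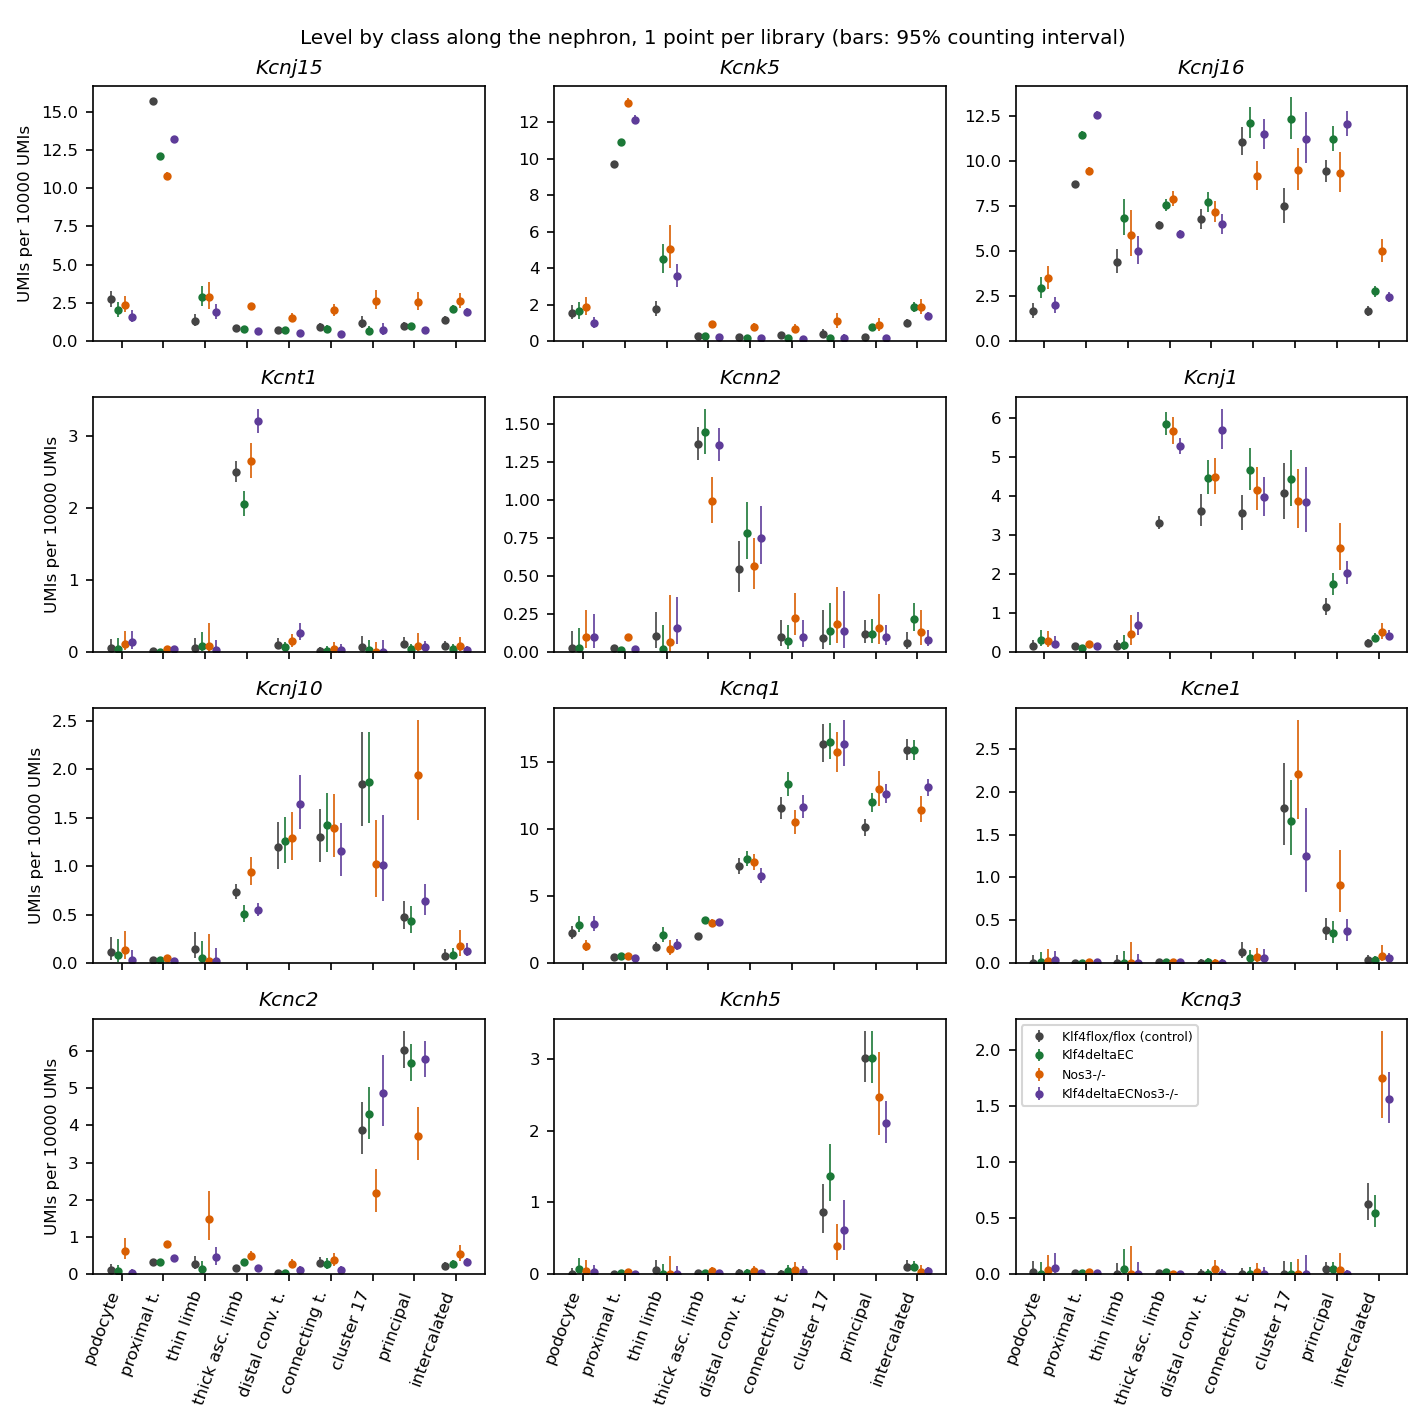
Levels in UMIs per 10000 UMIs (vertical axes, from 0) of 12 potassium channel genes in 9 nephron classes (horizontal axis), 1 point per library with its 95% counting interval. Kcnj15 stands between 10.8 and 15.7 in proximal tubule-like nuclei of all 4 libraries, and Kcnq1 between 15.7 and 16.5 in cluster 17.

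Several genes outside the naming rule were picked after their values were seen: Kcnj10, Kcnj3, Kcnq3, Kcnip1, Kcns3, Kcng2, Kcnk1, Kcnk10, Kcnh4, Kcnj13, Kcnq5 and Kcnk13. Kcnj10, the basolateral inward rectifier that sets distal tubule voltage, stood in distal convoluted tubule-like nuclei at 1.19, 1.25, 1.29 and 1.64, where the library labelled Klf4deltaECNos3-/- was highest. In principal cell-like nuclei it stood at 0.477 (0.350 to 0.635), 0.435 (0.310 to 0.593), 1.94 (1.47 to 2.50) and 0.640 (0.491 to 0.819). The library labelled Nos3-/- was above the others there, by a log2 ratio of 1.82 (1.44 to 2.61) to the control. Kcnj1 and Kcne1 in the same class were also highest in that library, at ratios of 1.14 (0.78 to 1.64) and 1.07 (0.49 to 2.01). The summed level of 7 connecting tubule markers, 2 of which are also on the principal cell list, in principal cell-like nuclei was 31.5, 23.3, 42.7 and 22.4. Of this sum Slc8a1 alone gave 18.1, 12.4, 27.6 and 9.71. The rise in that library was not particular to principal cells: in thick ascending limb-like nuclei the same list summed to 3.88, 3.57, 16.2 and 2.90. In connecting tubule-like nuclei themselves that library was not the highest. In principal cell-like nuclei 13 proximal tubule markers summed to 21.5, 20, 58.2 and 17.2, and 8 principal cell markers to 26.0, 30.9, 22.8 and 38.7. Their part in these values was not tested.

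Both intercalated cell-like clusters carried different channels. Cluster 14 was high in Slc26a4, the bicarbonate exchanger pendrin, at 99.7, 89.2, 79.0 and 96.8, and cluster 16 held 0.164, 0.155, 1.77 and 0.240 of it. Kcnq3, a subunit of the slow M-type current, stood in cluster 14 at 1.22 (0.965 to 1.53), 1.02 (0.813 to 1.26), 2.83 (2.29 to 3.46) and 3.04 (2.68 to 3.43). The libraries labelled with Nos3-/- were above the other pair without overlap of the intervals, which cover counting error only. How many of all genes split in this way in the cluster was not counted. The log2 ratio was 1.15 (0.76 to 1.67) for Nos3-/- over control and 1.49 (1.22 to 1.95) for Klf4deltaECNos3-/- over Klf4deltaEC. In cluster 16 Kcnq3 was at 0.0219, 0, 0 and 0, where a count of 0 allows up to 0.077, 0.2 and 0.0645 in the last 3 libraries.

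Kcnip1, a calcium-binding partner of A-type channels, was also a cluster 14 gene, at 1.01 (0.782 to 1.29), 1.15 (0.934 to 1.41), 2.11 (1.65 to 2.67) and 0.989 (0.788 to 1.23). Here only the library labelled Nos3-/- was high. Its span overlaps Kcnmb1 on the other strand. Kcns3, a silent subunit that modifies other voltage-gated channels, showed the reverse preference, at 1.22, 1.17, 0.564 and 0.961 in cluster 16 and at 0.420, 0.185, 0.284 and 0.194 in cluster 14. Kcnq1 was also higher in cluster 16, at 19.3, 21, 12 and 18, than in cluster 14, at 12.6, 11.4, 11.1 and 8.44.

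**Figure D3:**
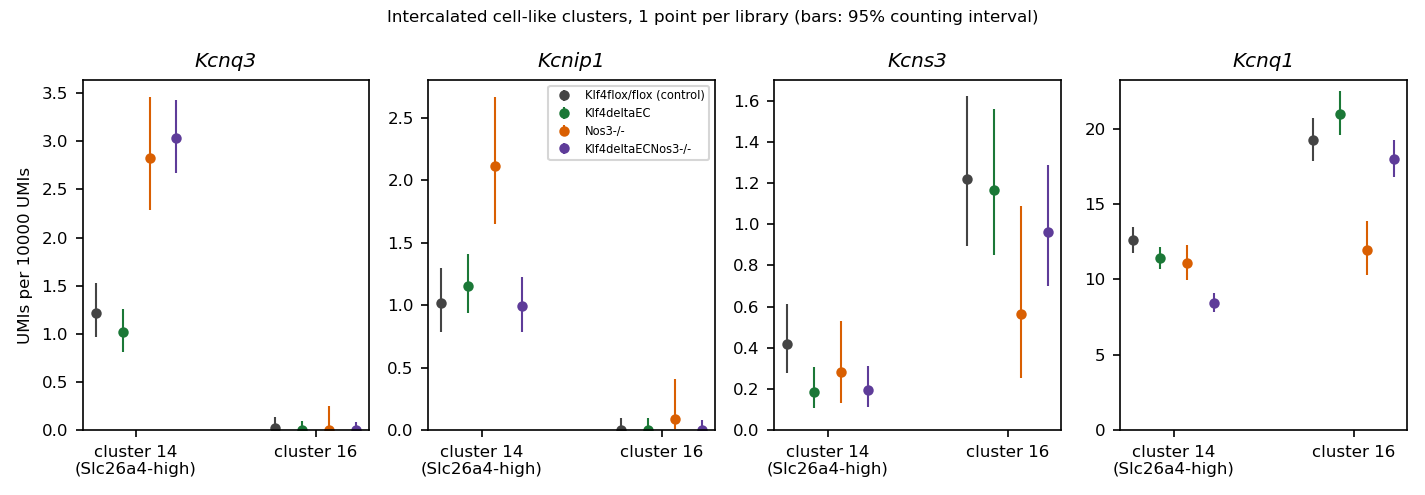
Levels in UMIs per 10000 UMIs (vertical axes, from 0) of Kcnq3, Kcnip1, Kcns3 and Kcnq1 in intercalated cell-like clusters 14 and 16, 1 point per library with its 95% counting interval. Kcnq3 is at 2.83 and 3.04 in the libraries labelled Nos3-/- and Klf4deltaECNos3-/- and at 1.22 and 1.02 in the other pair.

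Among the compared classes outside the tubule, stromal cell-like cluster 13 was the highest class for the most genes. In the mean of the libraries, 8 of the 33 genes were highest there among compared classes (Kcnb2, Kcnq5, Kcnt2, Kcnk2, Kcnip3, Kcnab1, Kcnd3 and Kcnd2), and 6 of them in every library. Kcnk2 and Kcnq5, at means of 0.382 and 0.538 there, were higher in small clusters that were not compared, at up to 10.3 and 7.19. Kcnd3, the pore of an A-type channel (chromosome 3, 105452330 to 105674002, plus strand), stood there at 4.87, 7.09, 4.54 and 2.84. The library labelled Klf4deltaEC was the highest and that labelled Klf4deltaECNos3-/- the lowest, at a log2 ratio of -1.29 (-1.71 to -0.95) between them. Kcnab1, a beta subunit of voltage-gated channels (chromosome 3, 65109384 to 65378223, plus strand), ran the other way, at 1.60, 1.65, 2.20 and 3.46.

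Kcnt2, a sodium-activated channel (chromosome 1, 140246158 to 140612067, plus strand), stood in cluster 13 at 3.57, 5.04, 2.75 and 3.41, and Kcnb2, a delayed rectifier, at 2.21, 2.05, 1.65 and 2.0. The 10 stromal markers summed there to 11.1, 10.9, 10.2 and 13.4 and differed among themselves: Myh11, the smooth muscle myosin, was at 1.24, 1.94, 2.31 and 3.3, Pdgfra, a fibroblast receptor, at 2.19, 1.75, 0.864 and 0.678, and Dcn, a matrix proteoglycan, at 0.631, 0.145, 0.165 and 0.541. The 13 proximal tubule markers summed to 92.9, 83.6, 94.9 and 100.4 there. Their part in the channel values was not tested.

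Podocyte-like nuclei held Kcng2, a silent subunit, at 0.596, 0.579, 0.663 and 0.901, at least 2-fold above every other class in each library.

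Libraries were next compared class by class for every gene that reached 0.5 in at least 1 of the 2 libraries, and a pair of gene and class counted as past the limit at a log2 ratio of (level + 0.1) of at least 1 or at most -1. Intervals of ratios leave out the added 0.1, so a low ratio can lie outside its own interval. The 5 comparisons share libraries and are not independent of each other. Potassium channel pairs were past the limit more often than all gene and class pairs in every comparison, and most of all where the library labelled Nos3-/- took part. With 0.5 added instead of 0.1 this did not hold for the library labelled Klf4deltaECNos3-/- over the control, at 0% against 0.664%.

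**Figure D4:**
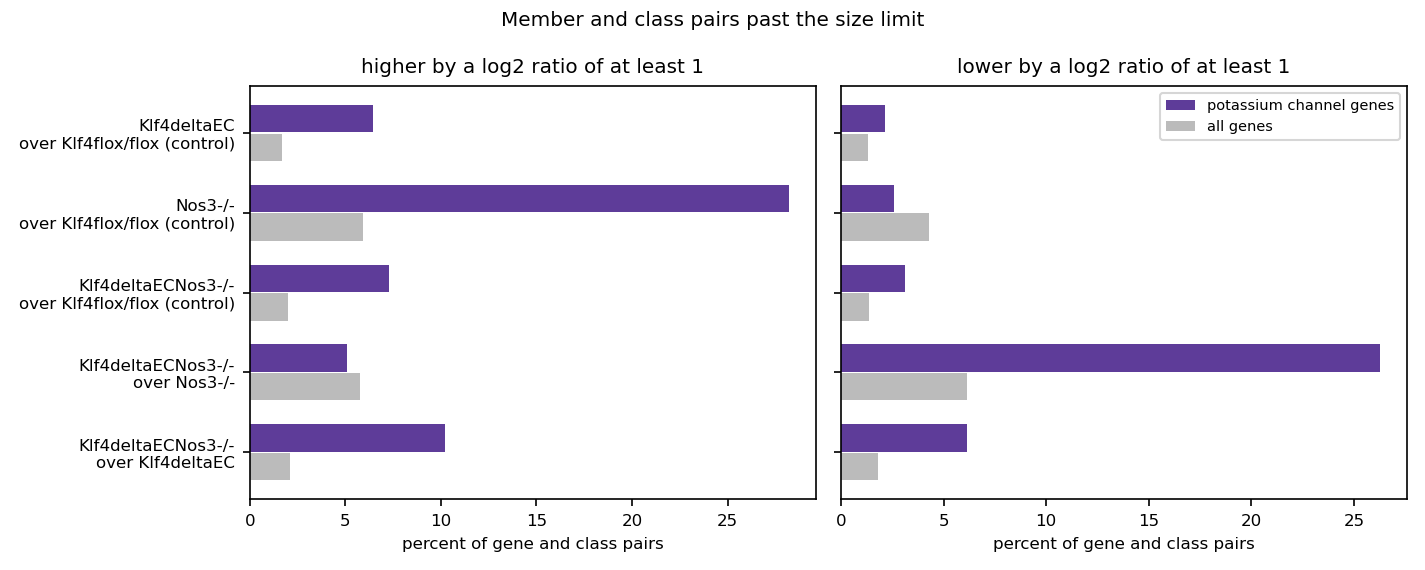
Percent of gene and class pairs at a log2 ratio of at least 1 (left) or at most -1 (right) in each of the 5 comparisons, for potassium channel genes and for all genes. The longest bars are the 28.2% of pairs higher in the library labelled Nos3-/- than in the control and the 26.3% lower in the library labelled Klf4deltaECNos3-/- than in that labelled Nos3-/-.

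For the library labelled Klf4deltaEC over the control, 6 pairs were higher and 2 lower of 93, 8.6% against 3.01% of all pairs (1.69% higher and 1.33% lower). With each gene's median ratio over the other classes taken off, 6 were higher and 0 lower, 6.45% against 2.15% of all pairs. The highest were Kcnk2, a mechanically gated tandem-pore channel, and Kcnh7, an ether-a-go-go-related channel, both in thin limb-like nuclei. Kcnk2 stood there at 0.0501, 0.713, 0.159 and 0.112, at a log2 ratio of 2.44 (1.77 to 7.02), and Kcnh7 at 0.0685, 0.620, 0 and 0.119, at 2.09 (1.31 to 5.77). Next was Kcnk5 in principal cell-like nuclei, at 0.241, 0.756, 0.867 and 0.189, at 1.33 (0.95 to 2.39). Kcnma1 in stromal cell-like nuclei was among the lower pairs, at -1.07 (-1.64 to -0.65). Thin limb-like nuclei, 140, 119, 83 and 103 per library, gave 4 of the 8 pairs. Without them 4 pairs of 84 remained, 4.76% against 2.38% of all pairs. In that class 8 thin limb markers summed to 42.7 in the control and 19.9 in the library labelled Klf4deltaEC, and their part was not tested.

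For the library labelled Nos3-/- over the control, 33 pairs were higher and 3 lower of 117, 30.8% against 10.2% of all pairs (5.93% higher and 4.28% lower), in 18 genes. The median log2 ratio of the potassium channel pairs was 0.45 against 0.05 for all pairs. With the median over a gene's other classes taken off, 11 pairs were higher and 13 lower, a centring that by itself moves these counts towards balance. Together they were 20.5% of the potassium channel pairs, against 5.83% of all pairs. In a gene's own highest class 8 of 30 pairs were past the limit, 6 higher and 2 lower, 20% and 6.67% against 1.73% and 8.87% over all genes in their own highest class. In its other classes 27 of 87 were higher and 1 lower. A pair can be counted because only 1 library reached 0.5, which favours the library where a gene is high. Over all genes under the same filter, 6.58% of pairs in other classes were higher and 3.56% lower, against 31% and 1.15% for the potassium channel genes, with no test of the difference. The highest class was taken from the mean of all 4 libraries, that labelled Nos3-/- among them, so this split is not independent of the ratios. Kcnma1 was placed in thin limb-like nuclei at a mean of 2.25, with 5.01 in that library, against 2.24 in proximal tubule-like nuclei. Kcnh8, Kcnmb2 and Kcnip4 were also higher in thin limb-like nuclei as their own class. The pairs of Kcnj15, Kcnk5 and Kcnma1 made up 16 of the 36, all higher.

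Those genes were high in proximal tubule-like nuclei, and proximal tubule markers moved with them. The 13 markers summed in thick ascending limb-like nuclei to 15.7, 15.8, 53.6 and 11.6, in principal cell-like nuclei to 21.5, 20, 58.2 and 17.2, and in endothelial cell-like nuclei to 34.5, 28.4, 71.8 and 23.9. All 3 classes were highest in the library labelled Nos3-/-, while proximal tubule-like nuclei themselves gave 200.2, 196.9, 182.3 and 188.5. As a percent of their proximal tubule-like level, in thick ascending limb-like nuclei, the markers were at 7.84, 8, 29.4 and 6.16, Kcnj15 at 5.53, 6.40, 20.9 and 4.76, Kcnk5 at 3.01, 2.31, 7.23 and 1.80, and Kcnma1 at 12, 12.9, 34.9 and 13.5. Each was highest in the library labelled Nos3-/-, and Kcnj15 and Kcnk5 were at a lower percent than the markers in all 4 libraries. The summed level of 13 mitochondrially encoded genes was lowest in that library in all 12 compared classes, for example at 60.4, 62.8, 27.1 and 59.3 in thick ascending limb-like nuclei. The part of these differences in the channel ratios was not tested.

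**Figure D5:**
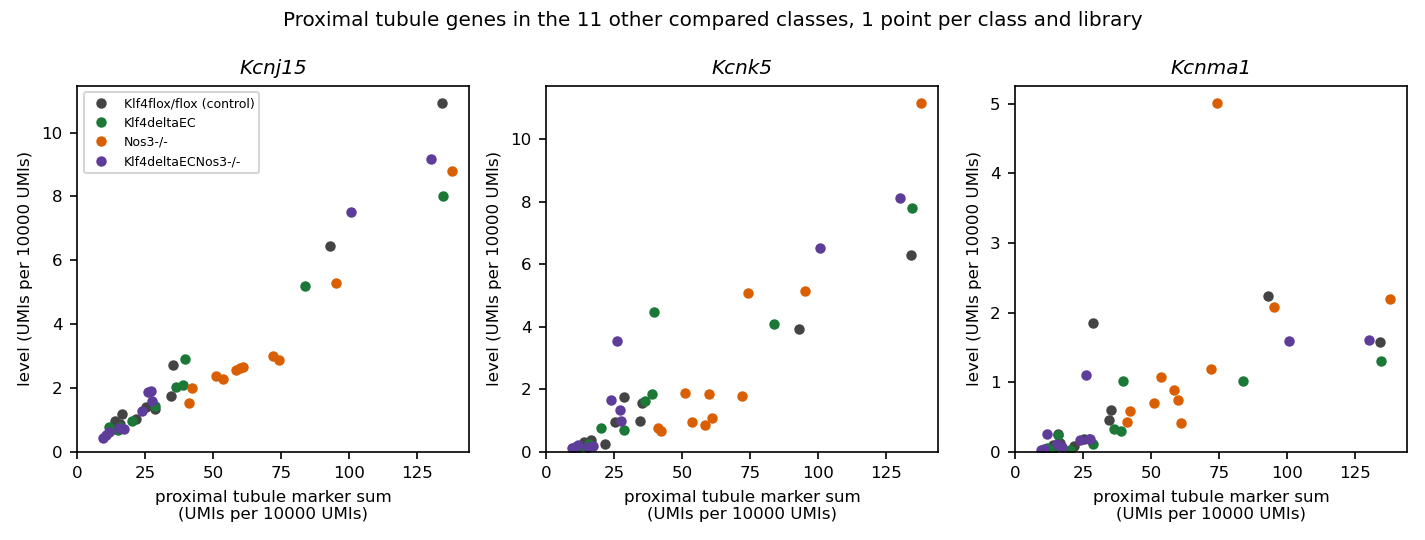
Levels of Kcnj15, Kcnk5 and Kcnma1 (vertical axes) against the summed level of 13 proximal tubule markers (horizontal axes), both in UMIs per 10000 UMIs, in the 11 compared classes other than proximal tubule-like, 1 point per class and library. In thick ascending limb-like nuclei the library labelled Nos3-/- has a marker sum of 53.6 and a Kcnj15 level of 2.26, against 15.7 and 0.868 in the control.

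The highest pair of this comparison was Kcnh8, an ether-a-go-go-like channel, in thin limb-like nuclei, at 0.0680, 0.110, 1.49 and 0.55, a log2 ratio of 3.25 (2.64 to 7.03). Kcnmb2, an inactivating beta subunit of the large-conductance channel, stood in that class at 1.17, 1.18, 3.67 and 1.49, and Kcnip4, another partner of A-type channels, at 0.223, 0.323, 1.63 and 0.8. The pore gene Kcnma1 stood there at 1.86, 1.02, 5.01 and 1.10. The 8 thin limb markers summed to 42.7, 19.9, 6.35 and 55.8 in the same class, lowest in the library labelled Nos3-/-. Their part was not tested, and without the class 24 pairs were higher and 2 lower of 105, 24.8% against 8.99% of all pairs. Kcnma1 in principal cell-like nuclei was also among the highest, at 0.0806, 0.0281, 0.881 and 0.0680, a ratio of 2.44 (2.26 to 4.81). The lower pairs included Kcnd2, an A-type pore gene, in stromal cell-like nuclei at -1.64 (-2.82 to -1.06) and Kcnn3, a small-conductance channel, in thin limb-like nuclei at -1.01 (-3.40 to 0.33).

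For the library labelled Klf4deltaECNos3-/- over the control, 7 pairs were higher and 3 lower of 96, 10.4% against 3.35% of all pairs (2% higher and 1.35% lower). The highest were Kcnh8 at 1.95 (1.17 to 5.61) and Kcnj1 at 1.68 (0.88 to 3.90) in thin limb-like nuclei, and Kcnt1 in stromal cell-like nuclei at 1.59 (0.58 to 4.39). The lowest were Kcnn3 in thin limb-like nuclei at -2.12 (-6.46 to -1.31), Kcnma1 in podocyte-like nuclei at -1.30 (-3.09 to -0.49) and Kcnip3, a calcium sensor, in stromal cell-like nuclei at -1.18 (-3.41 to -0.05). Kcnn3 stood in thin limb-like nuclei at 0.592, 0.628, 0.243 and 0.0590. Without thin limb-like nuclei 6 pairs of 84 remained, 7.14% against 3.1% of all pairs.

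For the same library over that labelled Nos3-/-, 6 pairs were higher and 31 lower of 118, 31.4% against 11.9% of all pairs (5.75% higher and 6.14% lower), and the median ratio was -0.36 against 0.03. With the median over a gene's other classes taken off, 14 were higher and 18 lower, 27.1% against 6.84% of all pairs. Kcnj15, Kcnk5 and Kcnma1 gave 18 of the 37 pairs, all lower. The lowest were Kcnc2 in podocyte-like nuclei at -2.55 (-9.93 to -2.07), Kcnma1 in principal cell-like nuclei at -2.55 (-5.18 to -2.43) and Kcnma1 in connecting tubule-like nuclei at -2.49 (-9.11 to -2.46). The highest were Kcnd2 in stromal cell-like nuclei at 1.73 (1.09 to 2.96), where it stood at 1.25, 0.7, 0.334 and 1.34, and Kcnt1 there at 1.67 (0.81 to 4.41).

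For the library labelled Klf4deltaECNos3-/- over that labelled Klf4deltaEC, 10 pairs were higher and 6 lower of 98, 16.3% against 3.89% of all pairs (2.09% higher and 1.8% lower). Kcnt1 in stromal cell-like nuclei was highest, at 1.94 (1.33 to 5.27), from levels of 0.105, 0.0608, 0.0941 and 0.518. Kcnh8 followed at 1.63 (0.55 to 4.72) and Kcnj1 at 1.42 (0.42 to 3.55), both in thin limb-like nuclei. The lowest were all in thin limb-like nuclei: Kcnn3 at -2.19 (-6.58 to -1.34), Kcnk2 at -1.94 (-4.74 to -1.05) and Kcnh7 at -1.72 (-4.42 to -0.77). Without that class 6 pairs were higher and 3 lower of 84, 10.7% against 3.38% of all pairs. Its 8 thin limb markers summed to 19.9 in the library labelled Klf4deltaEC and 55.8 in that labelled Klf4deltaECNos3-/-, and their part was not tested.

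Genes that work with these channels were counted by the same limit. Among 10 measured auxiliary subunits outside the Kcn symbols, 2 reached 0.5 in a compared class: Abcc9, the sulfonylurea receptor of vascular channels, in stromal cell-like nuclei at 0.811, 0.961, 0.761 and 0.509, and Lrrc52, a partner of large-conductance channels, in distal convoluted tubule-like nuclei at 0.739, 0.497, 0.509 and 0.517. Of 17 transport partners such as Slc12a1, the furosemide-sensitive cotransporter, 14 reached it, and in the library labelled Nos3-/- over the control 11 of their pairs were higher and 4 lower of 101, 10.9% and 3.96% against 5.93% and 4.28% of all pairs. Of 9 measured regulators of distal potassium secretion, such as Wnk4, a kinase of the salt-sensing cascade, all 9 reached it, with 5 pairs higher and 5 lower of 90 in that comparison, 5.56% each way and near the share of all pairs.

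Within 250 kb of each other lay 6 pairs of the 79 genes, and in 5 of the 6 one gene reached 0.5 and its neighbour did not: Kcnj10 with Kcnj9, Kcnj1 with Kcnj5, Kcnj16 with Kcnj2, Kcne1 with Kcne2 and Kcnip1 with Kcnmb1. Of all possible pairs among the 79 genes, 49.3% have 1 gene at the level and 1 below it, so a count over 6 pairs describes these pairs only. The pair Kcna1 and Kcna6 stayed below the level in both genes. Kcnj5, 28143 bases from Kcnj1, reached at most 0.0997 in any compared class.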

How the data were processed

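Single-nucleus libraries of mouse kidney cortex were made on the 10X Chromium system, and Cell Ranger, Seurat and the mm10 build were used, per the submitters' processing notes, which give no versions. The authors deposited a table of normalized signal for 21046 genes in 92 columns (23 clusters in each of 4 libraries). Every column sums to 10000, so a value is a mean over nuclei of UMIs per 10000 UMIs. All columns were matched to libraries by title, and 0 others were left over. The clustering is the authors', per the file headers. No source here states how doublets were treated or nuclei filtered, and barcodes shared between libraries could not be counted from means.

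Nuclei numbers were recovered from the reciprocals of low values, which share the number of nuclei as a divisor (tolerance 3e-14, at least 80% of values divided). On simulated columns the number was exact in 12 of 12 with an error of up to 6.57% in effective UMI totals. The counting intervals are exact Poisson for levels and exact binomial (Clopper-Pearson) for ratios, at 95%, and covered the simulated truth in 95.0% to 96.5% of cases. Class levels average the clusters of a class, each with its nuclei as weight. A cluster was named where its leading marker score, the mean over markers of the level divided by its highest cluster, was at least 0.4, the next type's was at most 0.7 of it, it had 3 or more detected markers, and its 10 top genes held no more markers of another type than of its own. The limits of this rule were chosen with the table in view. Clusters 0, 1, 3, 5, 6 and 12 were proximal tubule-like, 2, 4 and 19 thick ascending limb-like, 18 thin limb-like, 9 distal convoluted tubule-like, 11 connecting tubule-like, 8 principal cell-like, 14 and 16 intercalated cell-like, 15 podocyte-like, 13 stromal cell-like, 10 endothelial cell-like, 20 urothelium-like and 22 cycling cell-like, with 7, 17 and 21 unnamed. Cluster 13 had no stromal marker among its 10 top genes. Clusters 12 and 21 were far shallower than their library.

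The genes and lists were chosen with earlier results of these data known. Named genes were those reaching a mean level of 2 in a compared class, the 3 highest and 3 lowest pairs past the limit of each comparison, and the highest member of each family on a list that leaves out the silent-subunit families Kcng and Kcns. Some results under this rule are not reported here, though the counts include them. Log2 ratios used (level + 0.1). Alternatives covered the pseudocount, the level filter, median-ratio rescaling, cluster weights, the minimum of nuclei, centring on a gene's other classes and leaving out each library. Gene positions are from GENCODE M21 (GRCm38). Python 3.11.15, numpy 2.4.6, pandas 2.3.3, scipy 1.17.1 and matplotlib 3.10.9 were used.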

Additional observations from a re-analysis of the deposited data

Results flagged for a closer look

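A labelled change had opposite signs on the 2 backgrounds of the other label for Kcnk5 in principal cell-like nuclei, past the size limit both ways, and the difference was not tested. The Klf4deltaEC label gave a log2 ratio of 1.33 with Nos3 intact per the labels and -1.74 with Nos3-/-, and the Nos3-/- label gave 1.5 without and -1.57 with Klf4deltaEC. The pattern rests on 4 libraries, 1 per combination. Estimated UMIs of Kcnk5 in principal cell-like nuclei were 23.6, 69.1, 26 and 18.5, in the order control, Klf4deltaEC, Nos3-/-, Klf4deltaECNos3-/-. Proximal tubule markers in principal cell-like nuclei summed to 21.5, 20, 58.2 and 17.2, which is high in the library labelled Nos3-/- and not in that labelled Klf4deltaEC.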

How the results depend on the processing

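Depth limits low genes (3 counts equal a level of 0.202 in thin limb-like nuclei of the library labelled Nos3-/-), and 1 library per genotype limits every comparison. No paired analysis was possible because each genotype has 1 library. Of 66 alternative values for the counts in the report, 44 stayed within 1.5 times. With a pseudocount of 0.5 the pairs past the limit numbered 2 for Klf4deltaEC over control, 16 for Nos3-/- over control, 0 for Klf4deltaECNos3-/- over control, 18 for it over Nos3-/- and 3 for it over Klf4deltaEC. These were 2.15%, 13.7%, 0%, 15.3% and 3.06% of the pairs, against 0.626%, 3.95%, 0.664%, 4.66% and 0.888% of all pairs. With a level filter of 0.2 the pairs past the limit numbered 15, 57, 23, 69 and 33 in that order, and with no filter 25, 67, 28, 78 and 40. At the filter of 0.2 the shares were 9.43%, 34.3%, 15.2%, 39.9% and 20%, against 3.83%, 10.8%, 4.32%, 12.9% and 4.99% of all pairs. With no filter the shares were 2.64%, 7.07%, 2.95%, 8.23% and 4.22%, against 1.77%, 4.73%, 2.03%, 5.69% and 2.31%. With at least 20 nuclei per class the count for Klf4deltaECNos3-/- over control was 16, 13.9% against 5.59% of all pairs. Alternatives chosen after seeing the data were each cluster on its own, with 17 for Klf4deltaEC over control, 17 for Klf4deltaECNos3-/- over control and 58 for it over Nos3-/-, and leaving out thin limb-like nuclei, with 4, 6 and 9 for Klf4deltaEC over control and for Klf4deltaECNos3-/- over control and over Klf4deltaEC. Taking each cluster on its own compared 150, 148 and 182 pairs. Of these, 11.3%, 11.5% and 31.9% were past the limit, against 4.15%, 4.98% and 13% of all pairs. Without thin limb-like nuclei the shares fell to 4.76%, 7.14% and 10.7%, from 8.6%, 10.4% and 16.3% with them. Over all genes without that class the shares were 2.38%, 3.1% and 3.38%. Without 1 library at a time, 31 to 33 genes reached 0.5 and 23 to 24 kept 1 highest class. Centring on a gene's other classes changed the split of Nos3-/- over control from 33 higher and 3 lower to 11 and 13. The centred share was 20.5% against 5.83% of all pairs.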

Other observations

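Some potassium channel genes outside the compared levels, chosen after their values were seen, differed in the library labelled Nos3-/- across nearly all classes. The classes come from the same 4 libraries and are not independent, and no share over all genes stands beside the class counts. Kcnk10, a mechanically gated tandem-pore channel, stayed below 0.5 in every column, yet the library labelled Nos3-/- was the highest in 11 of the 12 compared classes, at 0.164 to 0.332, against 0.0109 to 0.195 in the control. In proximal tubule-like nuclei it stood at 0.0408, 0.114, 0.249 and 0.0400 in the order control, Klf4deltaEC, Nos3-/-, Klf4deltaECNos3-/-, a log2 ratio of 1.31 (2.17 to 3.07 without the pseudocount) for Nos3-/- over control. Its level was alike in very different classes, with 0.316 in distal convoluted tubule-like and 0.203 in endothelial cell-like nuclei of that library.

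Kcnj13, an inward rectifier, ran the other way: the library labelled Nos3-/- was the lowest in 10 of 12 compared classes, at 0 to 0.0495, and the library labelled Klf4deltaEC was at 0.103 to 0.451. Its span lies on the other strand of Gigyf2, and reads of the pair cannot be told apart. Kcnh4, an ether-a-go-go-like channel, stood in proximal tubule-like nuclei at 0.219, 0.317, 0.0547 and 0.261, and Kcnb2 at 0.235, 0.391, 0.0632 and 0.307. Both were lowest in the library labelled Nos3-/-, at log2 ratios to the control of -1.05 (-2.49 to -1.55 without the pseudocount) and -1.04 (-2.35 to -1.47), on estimated totals of 45.2 and 52.3 UMIs in that library.

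Some channel genes were high in small clusters. In urothelium-like cluster 20, with 59, 69, 12 and 88 nuclei, Kcnk2 stood at 7.76, 6.76, 10.3 and 6.27 and Kcnma1 at 7.48, 5.99, 8.65 and 5.26. With 12 nuclei in the library labelled Nos3-/-, 3 counts there equal a level of 1.22. Kcnma1 was not particular to this cluster, as it averaged 5.73 over the libraries in proximal cluster 1. In unnamed cluster 21, with 65, 68, 43 and 41 nuclei and both macrophage and lymphocyte markers, Kcnq5, an M-type subunit, stood at 4.47, 2.01, 1.87 and 7.19, and Kcnk13, a tandem-pore channel, at 1.92, 1.16, 0.724 and 1.25.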
